A study of Sus scrofa with 8 samples.

Results

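Anti-Müllerian hormone (AMH), the inhibin alpha subunit (INHA), the inhibin and activin beta A subunit (INHBA) and follistatin (FST) were examined in the testes of 8 boars. Probes were taken by the RefSeq accession they carry on the array or by the gene name the study gave them, and the gene names of the study added none. This gave 8 probes of 4 genes, out of 43603 probes that are not controls. AMH has 3 probes, INHA and FST have a pair each and INHBA has 1. No probe was named INHBB, the beta B subunit, by this rule, and it was not analysed here. Different probes of a gene are reported one by one.

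These genes code for secreted proteins of the TGF-beta family and for one of their antagonists. In the male, AMH comes from Sertoli cells, causes the Müllerian ducts to regress in the fetus and declines when Sertoli cells mature at puberty. An alpha subunit joined to a beta subunit makes inhibin, which lowers the release of follicle-stimulating hormone (FSH) from the pituitary. A pair of beta subunits makes activin, which stimulates that release. Activin signals through activin receptors and SMAD proteins, and follistatin binds activin and keeps it from its receptors. Sertoli cells are a main source of inhibin in the testis, which also makes activin and follistatin locally.

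The boars were Large White, and 4 of them, named S1 to S4 here, received a diet supplemented with methionine, choline, betaine, vitamin B6, vitamin B12 and folate from month 1 to month 10 of age. The other 4, named C1 to C4, received the control diet over the same time, and all were slaughtered at 10 months. Each testis RNA was hybridized to 1 porcine Agilent array with a single dye. The question was whether the diet affects gene expression in the testis. The boars came from 3 litters, and the diets were assigned at random within them. Boars S1, S2, C1 and C2 are a litter of 4 full brothers, 2 on each diet, and were hybridized on 1 slide. The other 4 boars, from the remaining litters, were on the second slide, and which of them share a litter is not given in the sources used here. Being of the litter of brothers and being on the first slide therefore cannot be told apart. The place on the slide cannot be told apart from the diet either, since supplemented boars took places 1 and 3 and control boars places 2 and 4 on both slides.

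The median spot intensity lay between 108 and 192.5 over the 8 arrays, which was 4.91 to 7.40 times the median local background. No spot was saturated. The defining genes of the testis were well above background on all 8 arrays, among them WT1, SOX9 and FSHR of Sertoli cells, INSL3 of Leydig cells and PRM1 of spermatids. All values below are log2 signals after quantile normalization, without background subtraction. In whole testis tissue, fewer cells of a type and less RNA per cell cannot be told apart.

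None of these probes passed the test for a difference between the diets. With limma, 0 of the 8 probes had an adjusted p under 0.05 and 0 had an unadjusted p under 0.05, beside 0% and 1.86% of the 36982 present probes. The ordinary equal-variance test gave 0 of 8 as well. The smallest unadjusted p was 0.238 (adjusted p = 0.840 from limma), for an FST probe. In 0 of the 8 probes did the boars of one diet all lie above the boars of the other, beside 1.13% of the present probes. The differences lay between -0.15 and 0.37, 5 of them positive (higher in supplemented boars) and 3 negative, with a median of 0.07, beside a median of -0.0028 over all present probes. Their median size was 0.10, beside 0.17. The plot of the 8 probes by diet shows the overlap of the groups in each.

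**Figure D1:**
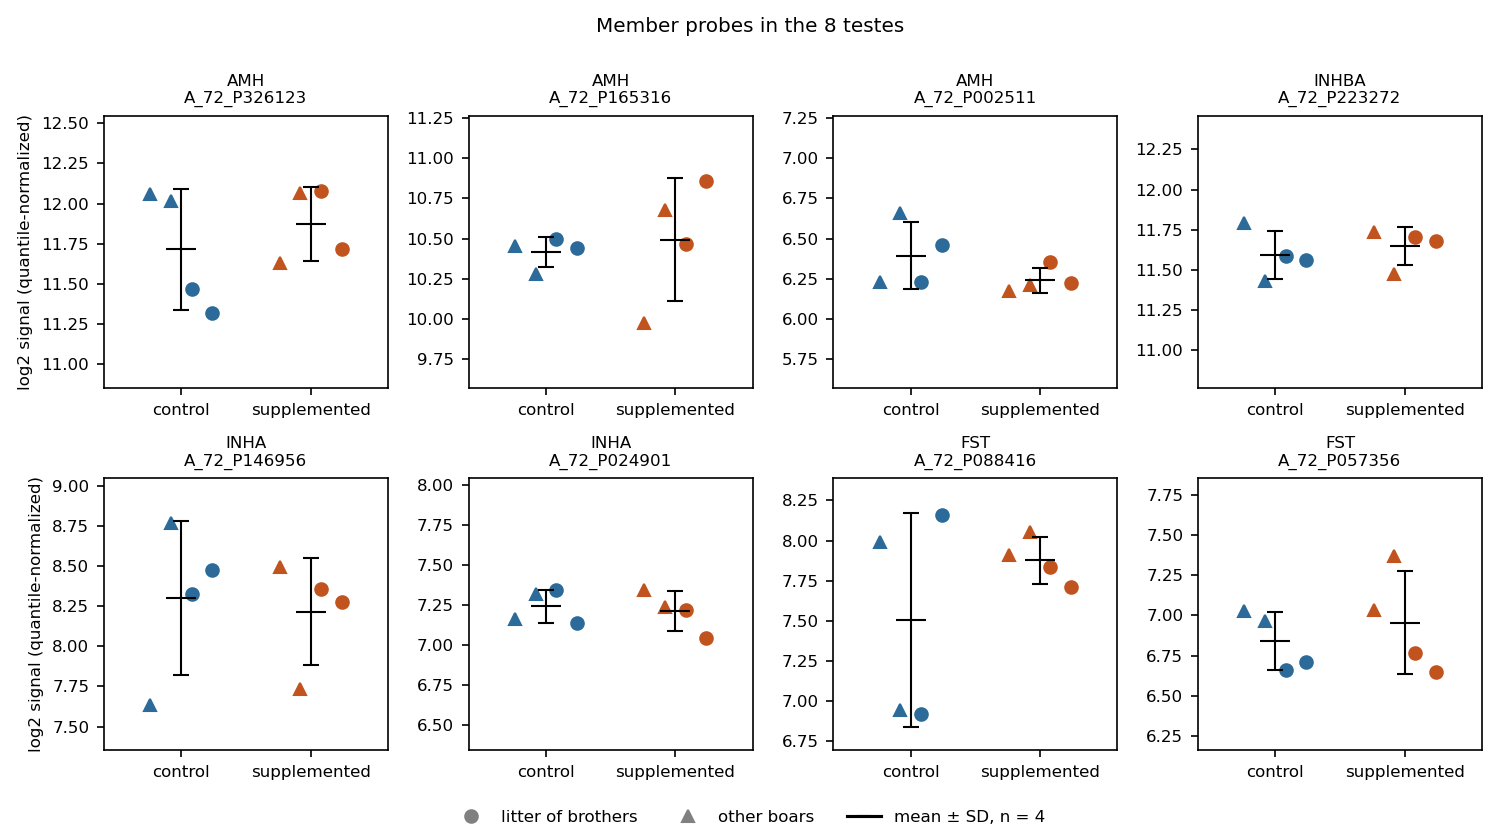
Quantile-normalized log2 signal of each member probe in the 4 control and the 4 supplemented boars, with mean and SD in black, circles for the litter of brothers and triangles for the other boars. Each panel spans the same log2 range, and the groups overlap in all 8 panels, with the widest spread in the FST probe A_72_P088416 and the narrowest in the INHA probe A_72_P024901.

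AMH, the Sertoli cell hormone, is read by 3 probes. The brightest, A_72_P326123, lay 106 to 199.6 times above the local background of its spot. On the supplemented diet its log2 signal was 12.08 in boar S1, 11.71 in S2, 11.63 in S3 and 12.07 in S4. On the control diet it was 11.47 in C1, 11.32 in C2, 12.06 in C3 and 12.02 in C4. The 2 control brothers were the lowest of all boars, while the other 2 control boars were as high as the highest supplemented ones. The means were 11.87 ± 0.23 (SD, n = 4) and 11.72 ± 0.38 (SD, n = 4). The difference was 0.16 (standard error 0.21, adjusted p = 0.865 from limma), or 1.11-fold with a 95% interval from 0.801 to 1.55. With each boar left out in turn it ran from 0.024 (without C2) to 0.27 (without C3).

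The brothers and the other boars did not share the direction in this probe. Supplemented minus control was 0.50 among the brothers and -0.19 among the other boars. The difference between these values was 0.69 (standard error 0.34), with an interaction p of 0.0776 and an adjusted p of 0.99996 from limma, so the interaction did not pass the test. Among all present probes 2% had an interaction p under 0.05, and among the members 0 of 8.

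The second AMH probe, A_72_P165316, was 44.7 to 100.1 times above background. It read 10.46, 10.86, 9.97 and 10.68 in the supplemented boars S1, S2, S3 and S4. In the control boars C1, C2, C3 and C4 it read 10.49, 10.44, 10.45 and 10.28. The control boars stood close together, and the supplemented boars S3 and S2 lay below and above all of them. The difference was 0.08 (standard error 0.20, adjusted p = 0.921 from limma), with a 95% interval from 0.778-fold to 1.43-fold.

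The third AMH probe, A_72_P002511, was dim, at 2.45 to 5.17 times the background. Without background subtraction such a probe understates any change. It read 6.35, 6.23, 6.17 and 6.21 in the supplemented boars and 6.23, 6.46, 6.23 and 6.66 in the control boars, each in the order given above. The highest values were those of the control boars C4 and C2. The difference was -0.15 (standard error 0.15, adjusted p = 0.840 from limma), with an interval from 0.714-fold to 1.13-fold.

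The AMH probes did not follow each other from boar to boar. Over the 8 boars the Pearson correlation was 0.12 between A_72_P326123 and A_72_P165316, 0.07 between A_72_P326123 and A_72_P002511 and -0.19 between A_72_P165316 and A_72_P002511. These coefficients describe probes of 1 gene on the same arrays. The 3 probes carry the same accession, and the part of the transcript that each reads is not given in the sources used here.

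INHA forms the alpha subunit, which is found in inhibin and not in activin. Its brighter probe, A_72_P146956, was 8.72 to 19.2 times above background. On the supplemented diet it read 8.36 in boar S1, 8.28 in S2, 8.49 in S3 and 7.73 in S4. On the control diet it read 8.32 in C1, 8.47 in C2, 7.63 in C3 and 8.77 in C4. Boars S4 and C3 were low, 1 on each diet, and the 6 other boars lay between 8.28 and 8.77. The means were 8.22 ± 0.33 (SD, n = 4) and 8.30 ± 0.48 (SD, n = 4), with a difference of -0.08 (standard error 0.26, adjusted p = 0.939 from limma). The 95% interval ran from 0.629-fold to 1.42-fold.

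The arrays of boars S4 and C3 were also the dimmest of the 8, with a median spot intensity of 108 and 116 against 129.5 to 192.5 on the others. The part of array brightness in the low INHA values was not tested. The difference between the diets was -0.084 on the background-subtracted scale and -0.070 with normexp, and neither value tests the part of array brightness. Dropping a single boar kept the difference negative in 6 cases, among them boar C3 of a dim array (-0.31). It turned positive without boar S4 of the other dim array (0.078) and without boar C4 (0.073).

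The second INHA probe, A_72_P024901, was 4.42 to 8.07 times above background and varied little. It read 7.22, 7.04, 7.34 and 7.23 in the supplemented boars and 7.34, 7.14, 7.16 and 7.32 in the control boars. The whole range over the 8 boars was 0.30, or 1.23-fold, and 3.85% of the present probes had a smaller residual SD. The difference was -0.03 (standard error 0.13, adjusted p = 0.959 from limma), with an interval from 0.794-fold to 1.21-fold. Boar C3, the lowest in the first probe, lay at 7.16 here, above boars S2 and C2, and the correlation of both INHA probes over the boars was 0.33.

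INHBA forms the beta A subunit, which is shared by inhibin A and activin A. Its single probe, A_72_P223272, was 79.1 to 176.4 times above background. The supplemented boars read 11.70, 11.68, 11.74 and 11.48 and the control boars 11.58, 11.56, 11.79 and 11.43. The lowest values were those of boars C4 and S4 and the highest that of C3, so that each diet held both high and low boars. The means were 11.65 ± 0.12 (SD, n = 4) and 11.59 ± 0.15 (SD, n = 4). The difference was 0.06 (standard error 0.14, adjusted p = 0.920 from limma), or 1.04-fold with an interval from 0.836 to 1.29. The residual SD was smaller in 7.20% of the present probes. The RefSeq table lists this gene as biotype other, while AMH, INHA, INHBB and FST are listed as protein coding. As for the probes of the other members, the name of this probe rests on its accession alone.

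FST binds and neutralizes activin. Its brighter probe, A_72_P088416, was 4.97 to 11.6 times above background and had the largest difference of the members. The supplemented boars read 7.83 in boar S1, 7.71 in S2, 7.91 in S3 and 8.05 in S4. The control boars read 6.92 in C1, 8.16 in C2, 7.99 in C3 and 6.94 in C4. The control group fell into a low pair, C1 and C4, and a high pair that lay within or above the supplemented boars. The means were 7.88 ± 0.14 (SD, n = 4) and 7.50 ± 0.66 (SD, n = 4).

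The difference was 0.37 (standard error 0.29, adjusted p = 0.840 from limma; two-sided exact permutation test, p = 0.400), or 1.29-fold with a 95% interval from 0.817 to 2.05. With each boar left out in turn it ran from 0.18 (without C1) to 0.58 (without C2), and it was 0.19 without C4. The exact test ran over all 70 arrangements of 4 boars against 4 and did not keep to the assignment of diets within litters. The smallest p it allows is 0.0286. Supplemented minus control was 0.23 among the brothers and 0.51 among the other boars. With array weights the difference was 0.57, with an unadjusted p of 0.0375 and an adjusted p of 0.299 from limma. Boar C3 had the lowest weight of the 8 (0.316). Boar C1, the lowest in this probe, had the highest weight of the control boars (2.75), so the weighted control mean rests mostly on it. With these weights 15.8% of all present probes had an unadjusted p under 0.05, against 1.86% without them.

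The low FST pair, boars C1 and C4, had the brightest arrays of the 8, with median intensities of 192.5 and 174 against 108 to 164 on the others. They also had the lowest values of the list of peritubular cell markers, named here after its values were seen. Of the 5 genes of that list, 2 had probes, CNN1 and DES, with 4 probes in all. The list median relative to the mean of all boars was -0.46 in C1 and -0.45 in C4, and between -0.16 and 0.53 in the 6 other boars. Its summed linear level ran from 25568 to 44316 on the supplemented and from 18004 to 37198 on the control diet. C1 and C4 were also lowest in the summed levels of other lists, likewise named after their values were seen. These were macrophages (1209 and 1117), endothelium (2892 and 2362) and spermatogonia (16616 and 10245). In the medians of those lists C1 and C4 were not the lowest pair. In the summed level of the Sertoli list they were the highest pair (57645 and 52053), against 20317 to 47290 in the other boars. C1 was the highest in duct epithelium (20010, with 11746 in C4). C4 was the highest in spermatids (852489, with 734933 in C1). The Leydig list had 430971 in C1 and 495210 in C4. The part of the array brightness or of any of these cell types in the FST values was not tested. The plot of INHA and FST against array brightness shows both low pairs.

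**Figure D2:**
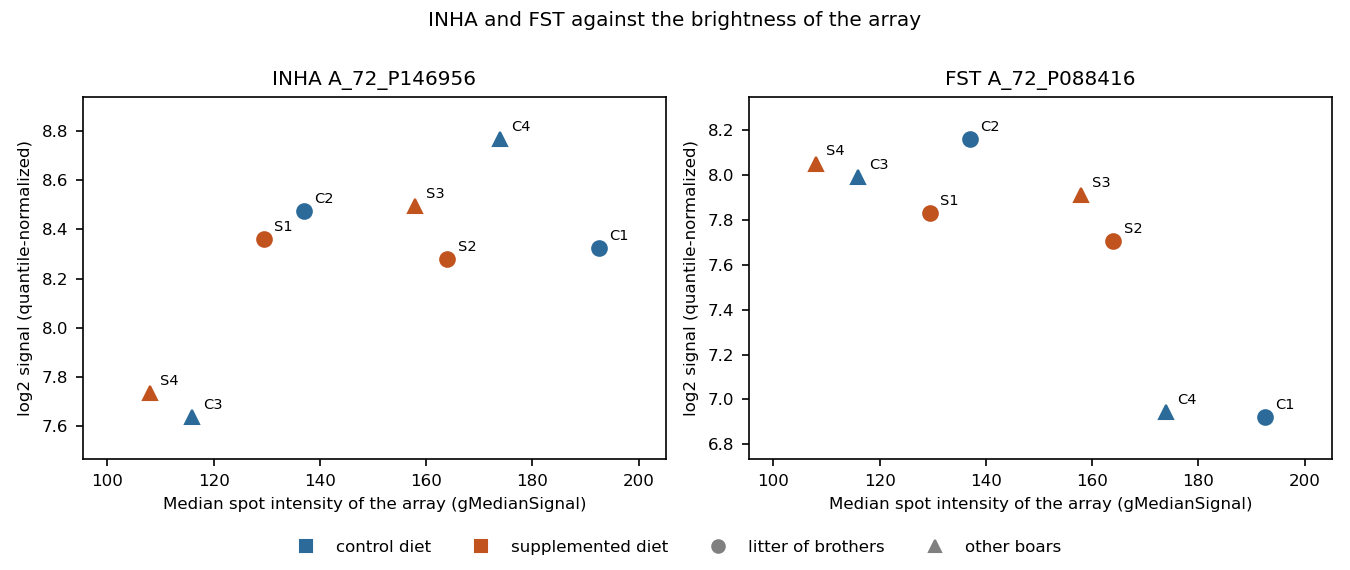
Quantile-normalized log2 signal of the INHA probe A_72_P146956 and the FST probe A_72_P088416 in each boar, against the median spot intensity of its array. Points are boars, coloured by diet, with circles for the brothers and triangles for the other boars. INHA is lowest on the 2 dimmest arrays (S4 and C3), and FST is lowest on the 2 brightest (C1 and C4).

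The second FST probe, A_72_P057356, was 3.88 to 7.15 times above background. It read 6.77, 6.65, 7.04 and 7.37 in the supplemented boars S1, S2, S3 and S4 and 6.66, 6.71, 7.02 and 6.96 in the control boars C1, C2, C3 and C4. Boar C4, which was low in the first probe, was not low here, and the correlation of both FST probes over the boars was 0.31. The difference between the diets was 0.12 (standard error 0.19, adjusted p = 0.880 from limma), with an interval from 0.808-fold to 1.45-fold.

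In this probe the 4 brothers lay between 6.65 and 6.77 and the 4 other boars between 6.96 and 7.37, without overlap. The share of present probes that separate in this way was not counted, so nothing is read from the separation. With the diet in the model, the brothers minus the other boars was -0.40 in this probe (standard error 0.14). The unadjusted p was 0.0174 and the adjusted p 0.589 from limma. It was the only one of the 8 probes with an unadjusted p under 0.05 in this comparison, where 8.11% of the present probes had one. The first FST probe differed by -0.07 between the brothers and the other boars (adjusted p = 0.956 from limma). No member had an adjusted p under 0.05 in this comparison, nor had any present probe (0%).

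The size of a change that the data leave possible was read from the 95% intervals, which are shown in the plot of the diet differences. All 8 intervals included no change. A doubling on the supplemented diet lay outside the interval for 7 of the 8 probes, the exception being the FST probe A_72_P088416, and a halving lay outside for all 8. The intervals hold for the log2 signal without background subtraction. For dim probes, such as AMH A_72_P002511 at 2.45 to 5.17 times the background, this scale understates any change. The counts therefore do not bound the change in the transcript for such probes. The residual SD was below the median of the present probes (0.30) for 5 of the 8. The 4 boars per diet limit the precision of each value.

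**Figure D3:**
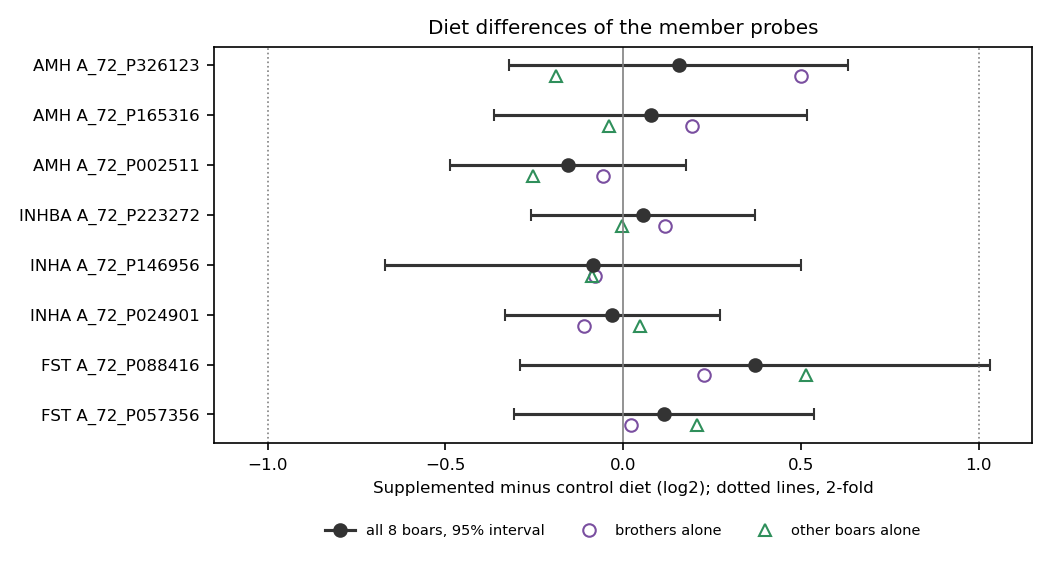
Difference between the supplemented and the control diet (log2) for each member probe, with its 95% interval from limma (black), and the same difference among the 4 brothers (open circles) and among the other 4 boars (open triangles). All intervals include 0, and the brothers and the other boars have the same sign in 4 of the 8 probes.

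The brightest probes of the 4 genes were also compared with each other across the 8 boars, as 6 pairs. None of the 6 correlations passed the test. The most negative was that of FST and INHA, with a Pearson r of -0.49 (exact permutation p = 0.182, adjusted p = 0.620) and a Spearman rho of -0.24 (exact permutation p = 0.582, adjusted p = 0.935). Without the boars C1 and C4, which lie farthest from the median of FST, r was -0.21. The most positive was that of FST and INHBA, with r = 0.41 (exact permutation p = 0.310, adjusted p = 0.620) and rho = 0.10 (exact permutation p = 0.840, adjusted p = 0.935). Without the same boars it was -0.49, so that its sign rests on them. For AMH and INHA, both of Sertoli cells, r was -0.41 (exact permutation p = 0.309, adjusted p = 0.620) and rho -0.36 (exact permutation p = 0.389, adjusted p = 0.935). The brothers and the other boars are too few, 4 each, for a value of their own. With the slide means removed, r over the 8 boars was -0.49, 0.43 and -0.32 for these pairs.

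Of the 2918 present probes with a gene name, the 3 with the most similar pattern over the 8 boars were taken for each gene. For AMH (A_72_P326123) these were ACAN (r = 0.92), LDB1 (r = 0.92) and LEP (r = 0.92). For INHA (A_72_P146956) they were PSMD4 (r = 0.99), AP3B1 (r = 0.96) and LOC733637 (r = 0.96). For INHBA they were ZP3 (r = 0.94), HNRNPAB (r = 0.93) and MIOX (r = 0.92), and for FST (A_72_P088416) SLA-7 (r = 0.97), SDC4 (r = 0.97) and SLA-DRB1 (r = 0.94). These are the highest of 2918 coefficients over 8 arrays and describe these arrays.

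The receptors, signal transducers and regulators around these hormones were read from a list of 41 genes, of which 16 had a named probe, 22 probes in all. Of these, 18 probes were named by their RefSeq accession, 6 with a positive and 12 with a negative difference, and 0 of the 18 had an unadjusted p under 0.05 with limma, beside 1.86% of the present probes. Their median difference was -0.08. The other 4, of SMAD9 and SMAD1, were named by the study's list of probes that differed between these same boars. All 4 had an unadjusted p under 0.05, which their choice fixed, and nothing is read from these values. They were also lower on the supplemented diet, and nothing is read from this direction either. Most of them are probes of the same gene, SMAD9, so they are not 4 separate results. Among the present probes 0.925% had such a p and were lower, and 0.938% had one and were higher. None of the 22 passed after adjustment.

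SMAD9 and SMAD1 carry the signals of AMH and of bone morphogenetic proteins. The SMAD9 probe A_72_P383658 read 10.15, 10.16, 9.44 and 10.18 in the supplemented boars S1, S2, S3 and S4 and 11.24, 10.69, 10.66 and 11.71 in the control boars C1, C2, C3 and C4. All supplemented boars lay below all control boars in this probe, which the study had listed for a difference between them. The difference was -1.10. The other SMAD9 probes, from the same list, differed by -0.97 (A_72_P337238) and -0.64 (A_72_P428914). In these too the diets did not overlap, as in 1.13% of the present probes. The list was drawn from these same boars, so nothing is read from this separation. The SMAD1 probe A_72_P025571 differed by -0.38 and its second probe, A_72_P223337, by -0.32, both with overlapping boars.

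SMAD3, which carries the signal of activin, differed by -0.03, and the 3 probes of SMAD4, the partner of all these SMADs, by -0.84, -0.92 and -0.31. The 5 SMAD probes named by RefSeq, of 3 genes, all had negative differences, as had 50.5% of the present probes. An unadjusted p under 0.05 was found in 0 of the 5, beside 1.86% of the present probes. The SMAD4 probes A_72_P146796 and A_72_P153726 were lowest in boars S4 (9.61 and 7.33) and C3 (9.91 and 7.98), which had the dimmest arrays. They were highest in C4 (11.94 and 10.56) and C1 (11.66 and 10.49), which had the brightest. The part of array brightness in these values was not tested. The receptors gave values on both sides of 0, with 0.18 for the activin receptor ACVR2B, 0.43 for BMPR1B, a receptor of bone morphogenetic proteins, and -0.15 and -0.16 for TGFBR3, the co-receptor of inhibin. FBN1, which codes for fibrillin and belongs to the binding proteins of the list, had -0.29. The adjusted p of these probes lay between 0.840 and 0.974 (limma).

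**Figure D4:**
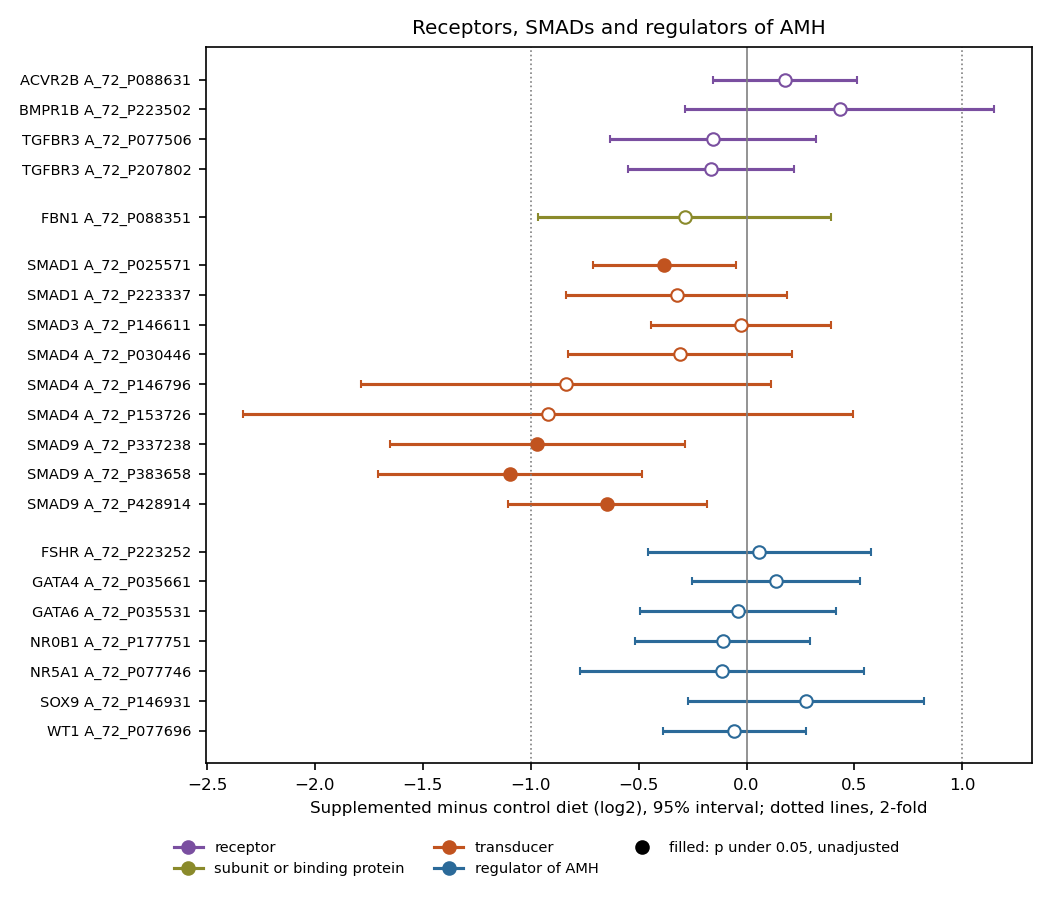
Difference between the supplemented and the control diet (log2) with its 95% interval for the probes of receptors, a binding protein, SMAD transducers and the regulators of AMH named in the text. Filled points have an unadjusted limma p under 0.05, and these are the 3 SMAD9 probes and the 1 SMAD1 probe named through the study's list of differing probes. No probe passed after adjustment.

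Genes known to regulate AMH in Sertoli cells had 8 probes of 8 genes, with 4 positive and 4 negative differences. Of these, 0 had an unadjusted p under 0.05, beside 1.86% of the present probes. SOX9, an activator of AMH, differed by 0.28 and GATA4 by 0.14. The receptor of FSH, FSHR, differed by 0.06, WT1 by -0.06, GATA6 by -0.04, NR5A1 by -0.11 and NR0B1 by -0.11. Of the 14 Sertoli markers listed, 8 had a probe, 1 each. Their list median relative to the mean of all boars ran from -0.17 to 0.11 on the supplemented and from -0.11 to 0.19 on the control diet. Of the 8 marker probes, 0 had an unadjusted p under 0.05, beside the same 1.86%. The duct epithelium list, with 5 probes of 2 of its 5 genes, had a negative difference in all 5, with a median of -0.95. In this list too, 0 had an unadjusted p under 0.05, beside the same 1.86%. Its summed linear level ran from 1962 to 13411 on the supplemented and from 4528 to 20010 on the control diet, and its part in the values above was not tested.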

How the data were processed

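RNA from the testes of 8 boars had been hybridized to Agilent arrays for the pig, 1 array per boar and with a single dye. The authors deposited the scanner output of each array, with the intensity of every spot as written by Feature Extraction (version 10.5.1.1 per the file headers), not normalized between arrays, and a table of log2 values of the probes with signal. In that table each deposited log2 column correlated with the quantile-normalized median signal at r = 0.999998 over probes, and the column medians were 8.18.

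Control spots were removed. The median signal (gMedianSignal, the raw value of the study) of the remaining 43803 spots was taken to log2, quantile-normalized with no background correction and averaged per probe. Presence required a signal above 25 and the flag gIsWellAboveBG on 2 or more arrays of either diet (36982 probes). All members were so on all 8 arrays, as were 30991 of the present probes. Diets were compared with limma 3.58.1 in R 4.3.3, two-sided and without a block, and P-values were adjusted by Benjamini-Hochberg over all present probes. The code was tested on simulated data. Accessions were named through the RefSeq table of Sscrofa11.1 (2628 of 3239 matched), and other names came from the study's gene list. Unmatched probes, such as those of expressed sequence tags, were not used for members.

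All probes of the members were named. Of the 22 pathway probes, those with p under 0.05 and at most 3 more per role were to be named. SMAD3, the third SMAD4 probe, a second TGFBR3 probe and the 5 other regulators of AMH were added after their values were seen. A further gene of the list was counted but is not reported here. The members and lists were chosen with earlier results of these data known. The alternatives were the background-subtracted gProcessedSignal and the median signal scaled to the 75th percentile, normexp (offset 50), other filters on dim or outlier spots, other variance models, array weights, the slide as a block, the brothers or the other boars alone, the deposited values and each boar left out. Each array is 1 boar, and P-values measure the spread between boars. Figures were drawn with matplotlib 3.10.9.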

Additional observations from a re-analysis of the deposited data

Results flagged for a closer look

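In the 8 member probes and the 22 pathway probes, single boars far from the other 3 of their group were searched for with Dixon's 95% critical value. There were 5 such boars in 60 groups, where chance gives about 3 (1 in 20), and none in a member probe. Boar S3 was the one in 3 of them, on the supplemented diet, with 9.44 in the SMAD9 probe A_72_P383658 against 10.15 to 10.18 in the others, 7.98 in the GATA6 probe A_72_P035531 against 8.62 to 8.68, and 9.03 in the NR5A1 probe A_72_P077746 against 8.12 to 8.23. The Leydig marker list of this boar had a median of 1.07 relative to the mean of all boars, the highest of the 8. Its Sertoli list median was the lowest of the 8 (-0.17). The part of either cell type in the values of this boar was not tested. The SMAD4 probe A_72_P153726 was 7.33 in the supplemented boar S4 against 9.10 to 9.45. The ACVR2B probe A_72_P088631 was 5.41 in the control boar C4 against 5.77 to 5.81.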

How the results depend on the processing

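No member probe had an adjusted p under 0.05 between the diets under any of the 21 alternatives, nor between the brothers and the other boars where that was fitted. The number with an unadjusted p under 0.05 was 1 with array weights (FST A_72_P088416), where 15.8% of all present probes had one, and 1 in the litter of 4 brothers alone (AMH A_72_P326123, difference 0.50), where 6.44% had one, and 0 with each boar left out. The number of probes whose diets did not overlap was 2 in the litter of brothers and also 2 in the 4 remaining boars when each was fitted separately, where 37.1% and 22.6% of all present probes did not overlap, and 0 to 1 with each boar left out, with 1 (AMH A_72_P002511) without boar S1, beside 2.2% of all present probes. The interaction count was 0 to 1 with each boar left out, with 1 (AMH A_72_P326123) without boar S4, where 874 of the 36982 present probes had one. The number of pathway probes with an unadjusted p under 0.05 was 3 to 7 with each boar left out, and 3 to 6 under the other alternatives. It was 7 without boar C3, where 16.7% of all present probes had one, and 6 with array weights (15.8%). The lowest share of all present probes was 0.917%, without boar C4. In the main setting the count was 4, all of them probes named by the study's list. The choice of that list fixed their p, so nothing is read from how this count held.

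The sign of a member's difference changed in 10 of 168 values. In the other 4 boars alone it was -0.039 for AMH A_72_P165316, -0.19 for AMH A_72_P326123, 0.047 for INHA A_72_P024901 and -0.0040 for INHBA. With each boar left out, AMH A_72_P165316 ran from -0.044 (without S2) to 0.25, INHA A_72_P146956 from -0.31 to 0.078 (positive without S4, and without C4), INHA A_72_P024901 from -0.075 to 0.024 (positive without S2 or C1) and FST A_72_P057356 from -0.023 (without S4) to 0.21. The correlation of AMH and INHBA was -0.21 with the background-subtracted signal, -0.0051 with the deposited values and -0.059 after removing the diet means, and that of AMH and FST was then -0.078. With the background-subtracted signal the correlation of FST and INHBA was -0.027 and that of INHA and INHBA 0.10. With each boar left out the correlation of AMH and FST ran from -0.34 to 0.41, of AMH and INHBA from -0.23 to 0.25 and of INHA and INHBA from -0.75 to 0.077. The cause of these changes was not tested. Probes near background, such as AMH A_72_P002511, understate a change.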
